A study of Mus musculus with 17 samples.

Results

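The 52 genes described here encode proteins that bind pre-mRNA and set which exons are kept. They were chosen by gene symbol among the protein-coding genes, as the numbered Srsf genes with *Tra2a* and *Tra2b* (SR, 13 genes), all genes whose symbol begins with Hnrnp (20), and the numbered or lettered members of the Ptbp (3), Rbfox (3), Mbnl (3), Celf (6), Esrp (2) and Nova (2) families. They are 52 of the 54532 genes measured. RNA of R1/E mouse embryonic stem cells (mESCs) was sequenced in 17 libraries, to ask whether *Usb1* is needed for self-renewal and for differentiation under retinoic acid (RA). All groups belong to an RA differentiation series, and wild-type and *Usb1* knockout cells were each collected before RA (day 0), after 1 day of RA and after 3 days of RA, with 2 replicates in wild-type cells at day 0 and 3 in each of the other 5 groups. The knockout cells are a single CRISPR/Cas9 clone, KO-1, whose mutant mRNA would encode a truncated protein, so that loss of *Usb1* and features of that clone cannot be told apart. Bulk RNA does not separate fewer cells of a kind from less RNA per cell.

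*Usb1* trims the 3′ end of U6 snRNA, the RNA at the catalytic centre of the spliceosome. SR proteins mostly bind exonic enhancers and recruit the spliceosome, whereas hnRNP proteins coat pre-mRNA and often silence the exons they bind. Ptbp, Rbfox, Mbnl, Celf, Esrp and Nova proteins are present in some tissues more than in others, and shift exon choice as cells become neural, muscle or epithelial.

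Expression is given as TPM, each gene's share of reads per exon length, where the length that fits these values is that of all annotated exons merged. Levels of different genes therefore depend partly on the annotation. *Hnrnpr*, with 22199 exon bases, had 2591 reads on average and 24.9 TPM, and *Srsf9*, with 1653, had 1507 reads and 194 TPM. Tests were made with limma on log2(TPM + 1), a scale on which the change of a lowly expressed gene is understated, and a gene passed a comparison at a Benjamini-Hochberg adjusted p under 0.05 over the 21871 genes tested. Of the 52 genes, 48 reached 1 TPM in 2 or more libraries and were tested. All are protein-coding, and in each comparison more of the 14485 protein-coding genes passed than of all genes. Between genotypes their shares were 14.6%, 24% and 10.3% at day 0, day 1 and day 3. For day 1 and day 3 against day 0 and day 3 against day 1 they were 48.6%, 66% and 57.4% in wild-type cells. In knockout cells they were 37.5%, 66.5% and 59.5%, and for the interactions 2.93%, 7.86% and 10.8%. *Usb1* measured 39.95 and 37.1 TPM in wild-type cells at day 0, 56.9, 48.6 and 51.9 at day 1, and 33.7, 32.0 and 35.8 at day 3. In knockout cells *Usb1* RNA measured 15.5, 15.2 and 17.9 TPM at day 0, 20.7, 21.4 and 18.5 at day 1, and 14.7, 17.2 and 20.4 at day 3, below every wild-type library, with log2 fold changes of −1.20, −1.34 and −0.93 (limma, adjusted p = 3.23e-05, 1.97e-06 and 9.37e-05). Summed over 8 pluripotency markers, TPM ranged from 8477 to 9231 in wild-type cells at day 0 and day 1 and from 1051 to 1275 at day 3. In knockout cells the ranges were 9190.1 to 11525 and 1446 to 1798. Of 8 tested neural markers, 6 passed between day 0 and day 3 in wild-type cells (1 higher, 5 lower) and 7 in knockout cells (2 higher, 5 lower), and 3 of 6 muscle markers stayed under the limit of the test, with a summed level of 23.5 to 52.9 TPM over the 17 libraries. Reads on genes, recovered from TPM and exon length, numbered 15404379 to 17300186 per library. Both wild-type libraries of day 0 (239 and 1352) and knockout replicate 1 at day 3 (1224) had few genes of 1 read, while 14 libraries each held 2150 to 2467 such genes. A fit without wild-type replicate 1 at day 0 therefore keeps another such library as the only wild-type one of day 0. The 2 wild-type libraries of day 0 had the lowest Pearson's r of all replicate pairs (0.934). Calls on named genes that were lost without wild-type replicate 1 at day 0 or knockout replicate 1 at day 3 are given beside them. Those lost without wild-type replicate 2 at day 0 are not listed by gene.

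The SR and hnRNP genes were among the abundant mRNAs of these cells, and most of the tissue regulators were low. Over the 17 libraries, the 52 genes had a median level of 115 TPM, with 27 genes over 100 and 12 under 10 TPM. The hnRNP genes had a median of 390.3 TPM and the SR genes 194 TPM. The highest were *Hnrnpab*, a relative of *Hnrnpd*, at 928 TPM, *Hnrnpa0* at 891, *Hnrnpa2b1* at 837, *Hnrnpa1*, the best known exon silencer of the class, at 789, *Srsf2* (SC35) at 601 and *Srsf7* at 544 TPM. *Hnrnpa0* alone ranged from 695 to 881 TPM between the wild-type libraries of day 0, so that the order of the 4 highest genes is not set beyond the spread of replicates. In the Ptbp, Celf, Rbfox and Mbnl families 1 gene gave most of the RNA. *Ptbp1*, which keeps neural exons silent in non-neural cells, averaged 442 TPM against 65.2 for *Ptbp3* and 25.1 for its neural paralog *Ptbp2*. *Celf1* averaged 138 TPM against 15.0 for *Celf5*, 2.33 for *Celf4* and 1.78 for *Celf2*. *Rbfox2* (chr15:77078990-77307004, minus strand), which binds near exons that it includes or skips by position, averaged 71.2 TPM, and its paralogs *Rbfox1*, of brain and muscle, and *Rbfox3*, the neuronal NeuN antigen, 0.0251 and 0.489 TPM. *Mbnl2* (chr14:120275669-120431697, plus strand, GRCm38) averaged 70.1 TPM against 5.44 for *Mbnl1* and 3.83 for *Mbnl3*. Both Nova genes, which act in neurons, lay at 3.52 (*Nova1*) and 2.76 TPM (*Nova2*). Not tested, because they stayed under the limit, were *Rbfox1*, *Rbfox3*, *Celf3* (0.437 TPM) and *Celf6* (0.327 TPM).

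**Figure D1:**
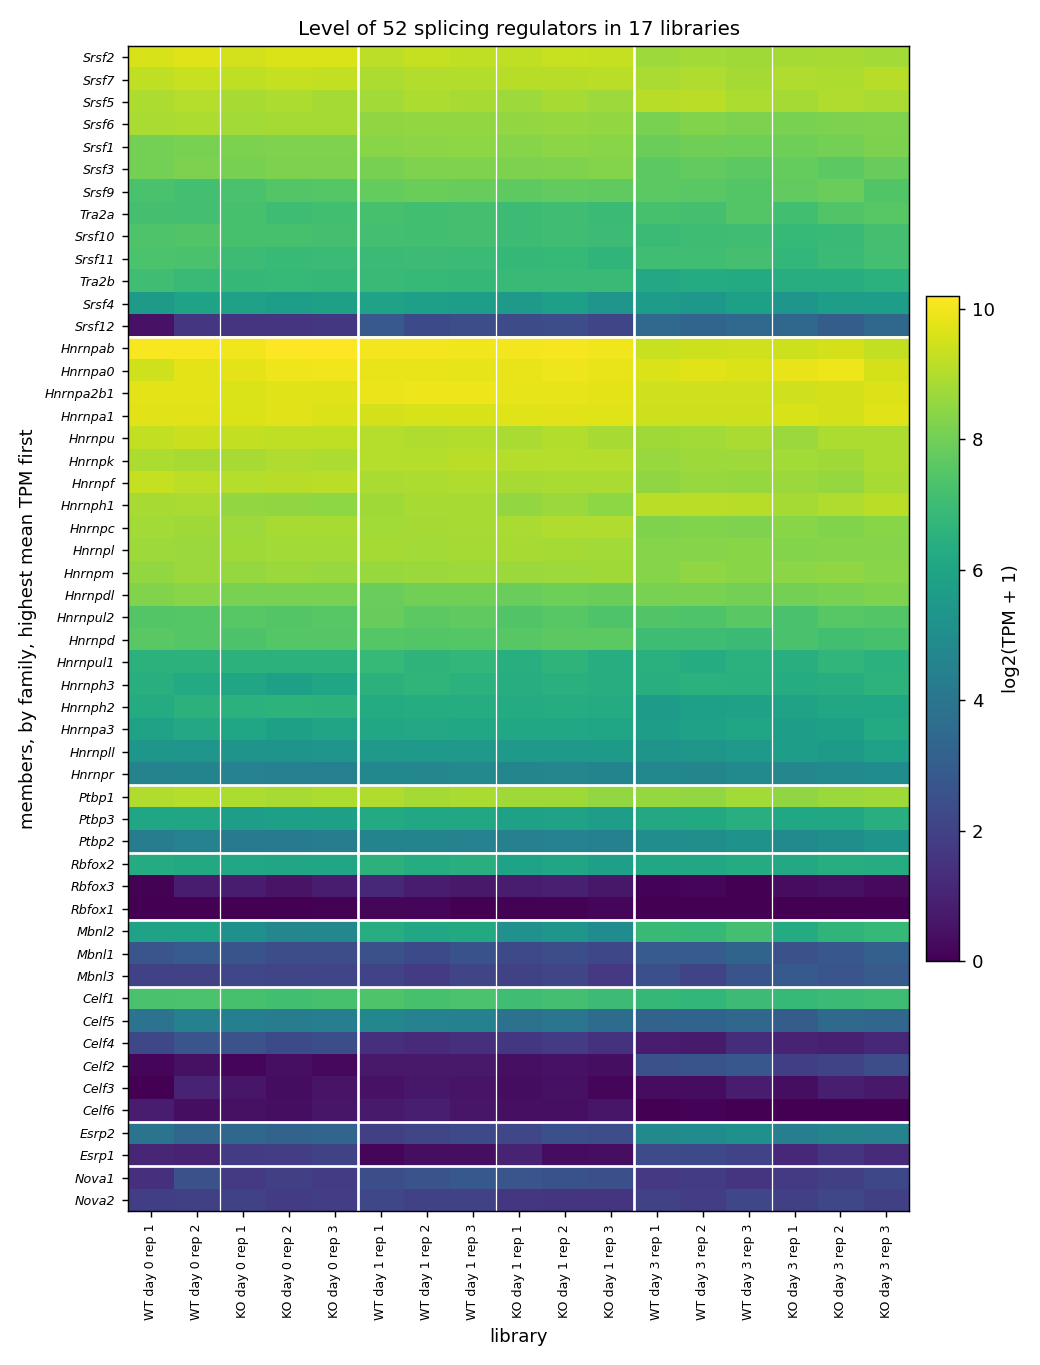
Level of each of the 52 splicing regulators (rows, grouped by family) in each of the 17 libraries (columns, grouped by day and then genotype), as log2(TPM + 1) on the colour scale. The hnRNP and SR rows are high in all libraries, from 24.9 TPM (*Hnrnpr*) to 928 TPM (*Hnrnpab*) on average with the exception of *Srsf12* at 5.31 TPM, while *Rbfox1*, *Rbfox3*, *Celf3* and *Celf6* stay near 0.

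Promoter sequence was taken from RefSeq (GRCm38.p6), whose table holds 74 promoters of 45 of the 52 genes. *Celf4*, *Esrp1*, *Esrp2*, *Hnrnpll*, *Hnrnpul2*, *Ptbp3* and *Rbfox2* were not matched. The 250 bases upstream of the start were searched on both strands for GGGCGG (the GC box bound by Sp1), TATAAA (the TATA box) and AGGTCA (the core of retinoic acid receptor sites), none of which overlaps another as a pattern. A GC box stood in 49 of the 74 promoters (66.22%), against 32.74% of all 32851 promoters of the table, TATAAA in 7 (9.459%, against 12.37%) and AGGTCA in 5 (6.757%, against 14.02%). Some promoters of the same gene overlap, as for *Srsf4* and *Hnrnph1*, and by gene a GC box stood in 35 of the 45. The table was not limited to genes expressed in these cells. A match is a description of the letters and not a binding site. Shown are the promoters of *Mbnl2*, which differed most between the genotypes, of *Srsf9*, an SR gene higher after RA that holds AGGTCA, and of *Tra2b*, which fell after RA. The other genes with AGGTCA were *Srsf3*, which was lower at day 3 in wild-type cells, and *Celf2*, *Hnrnph1* and *Ptbp2*, which were higher. Whether such matches bear on the changes was not tested. Capitals mark the matches on either strand, at 11 bases before the start for the GC box of *Mbnl2* (chr14:120275419-120275668, plus strand), at 201 bases for AGGTCA and at 129, 58 and 48 for the GC boxes of *Srsf9* (chr5:115326927-115327176, plus strand), and at 76 for the GC box of *Tra2b* (chr16:22266006-22266255, minus strand).
Mbnl2: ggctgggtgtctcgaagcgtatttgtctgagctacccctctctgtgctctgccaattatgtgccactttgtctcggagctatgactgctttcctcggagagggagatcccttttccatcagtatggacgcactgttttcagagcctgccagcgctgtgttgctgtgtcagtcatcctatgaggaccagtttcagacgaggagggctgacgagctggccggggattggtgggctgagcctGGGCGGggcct
Srsf9: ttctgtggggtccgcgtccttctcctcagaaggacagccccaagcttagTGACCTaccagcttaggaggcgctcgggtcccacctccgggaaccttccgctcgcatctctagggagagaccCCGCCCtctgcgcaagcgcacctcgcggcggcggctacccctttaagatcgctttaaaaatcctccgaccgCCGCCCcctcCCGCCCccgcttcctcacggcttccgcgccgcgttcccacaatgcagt
Tra2b: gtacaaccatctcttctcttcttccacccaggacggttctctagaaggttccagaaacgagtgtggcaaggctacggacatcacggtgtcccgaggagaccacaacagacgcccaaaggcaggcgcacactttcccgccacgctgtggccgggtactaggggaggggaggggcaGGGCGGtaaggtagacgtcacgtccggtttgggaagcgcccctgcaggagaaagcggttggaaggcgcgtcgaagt

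After 3 days of RA, wild-type cells had less RNA of most SR and hnRNP genes and more of *Mbnl2* and both Esrp genes. Between day 3 and day 0, 31 of the 48 tested genes passed, 8 higher and 23 lower, against 52.1% of all genes tested (29.6% higher and 22.5% lower). The share that passed (64.6%) was near the 66% of protein-coding genes, while lower members outnumbered higher ones. The libraries of the days did not overlap for 36 of the 48, against 60% of all genes tested. The median log2 fold change was −0.16 over the 48 genes and 0.10 over all genes. The changes were small, with a median size of 0.34 on the log2 scale against 0.60 for all genes. A scaling to equal library medians shifted the median of all genes to −0.08, and under that scaling, quantile normalization and voom on the recovered reads the SR and hnRNP genes that passed were again mostly lower.

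Of the 13 SR genes, 9 passed between day 0 and day 3 in wild-type cells, 2 higher and 7 lower, with 1 higher and 9 lower under equal medians. Their summed level fell from 3660.3 to 3866 TPM over the wild-type libraries at day 0 to 3289 to 3468 at day 1 and 2879 to 2991 at day 3. *Srsf2*, the most abundant, measured 755 and 828 TPM at day 0, 574, 637 and 601 at day 1, and 412, 441 and 426 at day 3. The libraries of the 3 days did not overlap, and in limma day 3 against day 0 gave −0.89 on the log2 scale (SE 0.06, adjusted p = 1.23e-08). *Tra2b*, which binds GAA-rich enhancers, measured 132 and 115 TPM at day 0, 116, 114 and 109.6 at day 1 and 70.5, 76.2 and 74.8 at day 3 (limma, day 3 against day 0, −0.73, SE 0.07, adjusted p = 2.95e-07), with day 3 below every library of day 0 and day 1. *Srsf6* fell by 0.73 (SE 0.05), *Srsf3* by 0.46 (SE 0.07), *Srsf10* by 0.40 (SE 0.08), *Srsf7* by 0.39 (SE 0.06) and *Srsf1*, the founding SR protein, by 0.15 (SE 0.06) on the log2 scale (limma, adjusted p from 4.72e-09 to 0.0415). *Srsf1* did so after a rise, at 268 and 283 TPM on day 0, 333, 346 and 354 on day 1 and 241, 255 and 246 on day 3.

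The higher SR genes were *Srsf12* and *Srsf9*. *Srsf12* (chr4:33208991-33233340, plus strand), a low-abundance relative that can counteract other SR proteins, measured 0.399 and 2.08 TPM at day 0, 6.14, 3.91 and 4.48 at day 1 and 10.1, 8.93 and 10.2 at day 3. The days did not overlap, and in limma day 3 against day 0 gave a log2 fold change of 2.37 with SE 0.27 and adjusted p = 3.04e-06. The low value at day 0 lies in wild-type replicate 1, which held 6 reads of *Srsf12*, and without that library the log2 fold change was 1.80 (limma, adjusted p = 1.85e-05). *Srsf9* measured 154 and 140.4 TPM at day 0, 218, 239 and 226 at day 1, and 195, 190.2 and 177 at day 3, highest on day 1 and without overlap between the days (day 3 against day 0: log2 fold change 0.35, SE 0.10, adjusted p = 0.0116, limma). *Srsf4*, *Srsf5*, *Srsf11* and *Tra2a* did not pass between day 0 and day 3, at log2 fold changes of −0.13, 0.04, −0.17 and 0.11, and the signs of *Srsf5* and *Tra2a* turned under equal medians (−0.14 and −0.08).

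Of the 20 hnRNP genes, 13 passed, of which 12 were lower at day 3, with 15 of 15 lower under equal medians, where *Hnrnph1* did not pass. Their summed level was 8026 to 8225 TPM at day 0, 8004 to 8118 at day 1 and 6452 to 6668 at day 3, so that the decrease of the sum lay between day 1 and day 3. Single genes differed from the sum. *Hnrnpu* went from 618 and 675 TPM at day 0 to 530, 500 and 516 at day 1. *Hnrnpdl* went from 309 and 330 to 234, 259 and 258, and stood at 280, 280 and 271 at day 3. *Hnrnpa2b1* went from 886 and 871 up to 955, 982 and 991 at day 1. *Hnrnpab* measured 1095 and 1096 TPM at day 0, 1046, 1031 and 1013 at day 1, and 651, 692 and 705 at day 3. Its day 3 libraries lay below all others (limma, day 3 against day 0, −0.68, SE 0.07, adjusted p = 2.06e-06). *Hnrnpf*, which binds G tracts, and *Hnrnph2* each changed by −0.66 (SE 0.07 and 0.09), *Hnrnpc*, which binds U tracts, and *Hnrnpd*, a regulator of AU-rich mRNAs, each by −0.53 (SE 0.06 for both), and *Hnrnpu*, a nuclear scaffold protein, by −0.52 (SE 0.08, all limma, adjusted p from 1.36e-06 to 5.92e-05). *Hnrnpl*, *Hnrnpa1*, *Hnrnpa2b1*, *Hnrnpk*, *Hnrnpm* and *Hnrnpdl* changed by −0.33, −0.32, −0.32, −0.23, −0.20 and −0.20. *Hnrnph1*, a close paralog of *Hnrnph2*, was the higher one and measured 462 and 475 TPM at day 0, 427, 461 and 460.2 at day 1 and 566, 564 and 553 at day 3, above every earlier library (log2 fold change 0.26, SE 0.08, adjusted p = 0.0152, limma). Without wild-type replicate 1 at day 0 it was 0.24 and did not pass (adjusted p = 0.0833).

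Among the tissue regulators, the largest rise was that of *Celf2* (chr2:6539694-7509563, minus strand), which measured 0.113 and 0.384 TPM at day 0, 0.603, 0.640 and 0.621 at day 1, and 4.83, 5.31 and 5.85 at day 3. Every day 3 library lay above every earlier one, and the log2 fold change from day 0 was 2.35 (SE 0.19, adjusted p = 9.84e-08, limma), and 2.19 without wild-type replicate 1 at day 0. The other Celf genes tested fell. *Celf4*, a neuronal member, measured 3.66 and 5.39 TPM at day 0, 1.56, 1.31 and 1.64 at day 1, and 0.730, 0.689 and 1.54 at day 3 (log2 fold change −1.48, SE 0.22, adjusted p = 4.48e-05). *Celf5* changed by −0.86 (SE 0.17, adjusted p = 7.46e-04) and *Celf1* by −0.45 (SE 0.08, adjusted p = 4.15e-04), and the *Celf1* libraries of day 3 (109, 107 and 128 TPM) lay below 154 and 158 TPM at day 0. *Celf1* made up 87.1% of the summed Celf RNA at day 0 and 87.9% at day 3, and *Celf2* 0.136% and 4.09%.

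*Mbnl2*, whose family favours exon choices of differentiated over stem cells, measured 57.8 and 59.0 TPM at day 0, 80.6, 65.7 and 72.4 at day 1, and 118, 114 and 142 at day 3. The days did not overlap, and *Mbnl2* rose by 1.07 on the log2 scale by day 3 (limma, SE 0.17, adjusted p = 7.38e-05). *Mbnl3* (0.44, SE 0.19, adjusted p = 0.0683) and *Mbnl1* (0.25, SE 0.18, adjusted p = 0.281) did not pass. *Ptbp1* measured 499 and 538 TPM at day 0, 499, 455 and 474 at day 1, and 382, 368 and 434 at day 3, whereas *Ptbp2* measured 19.0 and 22.2, then 23.0, 23.0 and 22.0, then 31.2, 32.2 and 36.9 TPM. They changed in opposite directions (log2 fold changes −0.40, SE 0.09, adjusted p = 0.00129, and 0.67, SE 0.11, adjusted p = 1.16e-04, limma), and *Ptbp2* went from 3.41% to 6.63% of the summed Ptbp RNA while *Ptbp1* went from 86.0% to 78.3%. *Rbfox2* did not pass (−0.09, SE 0.09, adjusted p = 0.449), nor did *Nova1* and *Nova2* (−0.29, SE 0.26, adjusted p = 0.38 and 0.10, SE 0.16, adjusted p = 0.645), and the sign of *Nova2* turned under equal medians and quantile normalization (−0.09 and −0.11).

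Both Esrp genes, which set epithelial exon choices such as those of *Fgfr2*, fell at day 1 and rose at day 3. *Esrp2* (chr8:106130319-106136974, minus strand) measured 14.0 and 9.21 TPM at day 0, 2.84, 3.38 and 3.70 at day 1, and 28.5, 29.9 and 33.8 at day 3. No libraries overlapped between the days, and the log2 fold changes were −1.53 (SE 0.16, adjusted p = 4.42e-06) at day 1 and 1.35 (SE 0.16, adjusted p = 5.00e-06) at day 3 against day 0, and 2.88 (SE 0.14, adjusted p = 7.62e-10) from day 1 to day 3 (limma). *Esrp1* (chr4:11331933-11386783, minus strand) followed the same course at a lower level and measured 1.13 and 0.967 TPM at day 0, 0.105, 0.303 and 0.314 at day 1, and 4.18, 3.72 and 3.16 at day 3, again without overlap (log2 fold changes −0.73, SE 0.22, adjusted p = 0.0182, and 1.19, SE 0.22, adjusted p = 3.42e-04, limma). The fall of *Esrp1* at day 1 was −0.67 and did not pass without wild-type replicate 1 at day 0 (limma, adjusted p = 0.0887), nor without wild-type replicate 1 at day 1 (−0.64, adjusted p = 0.0592). These values rest on 3 to 122 reads of *Esrp1* per library. Beside them, 6 of 7 epithelial and 6 of 6 extraembryonic endoderm markers passed as higher at day 3. The summed TPM of the epithelial markers was 538 to 562 at day 0, 579 to 642 at day 1 and 6250.3 to 6375 at day 3, and that of the endoderm markers was 145 to 169, 142 to 165 and 1371 to 1680.5. The part of such cells in the Esrp changes was not tested.

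**Figure D2:**
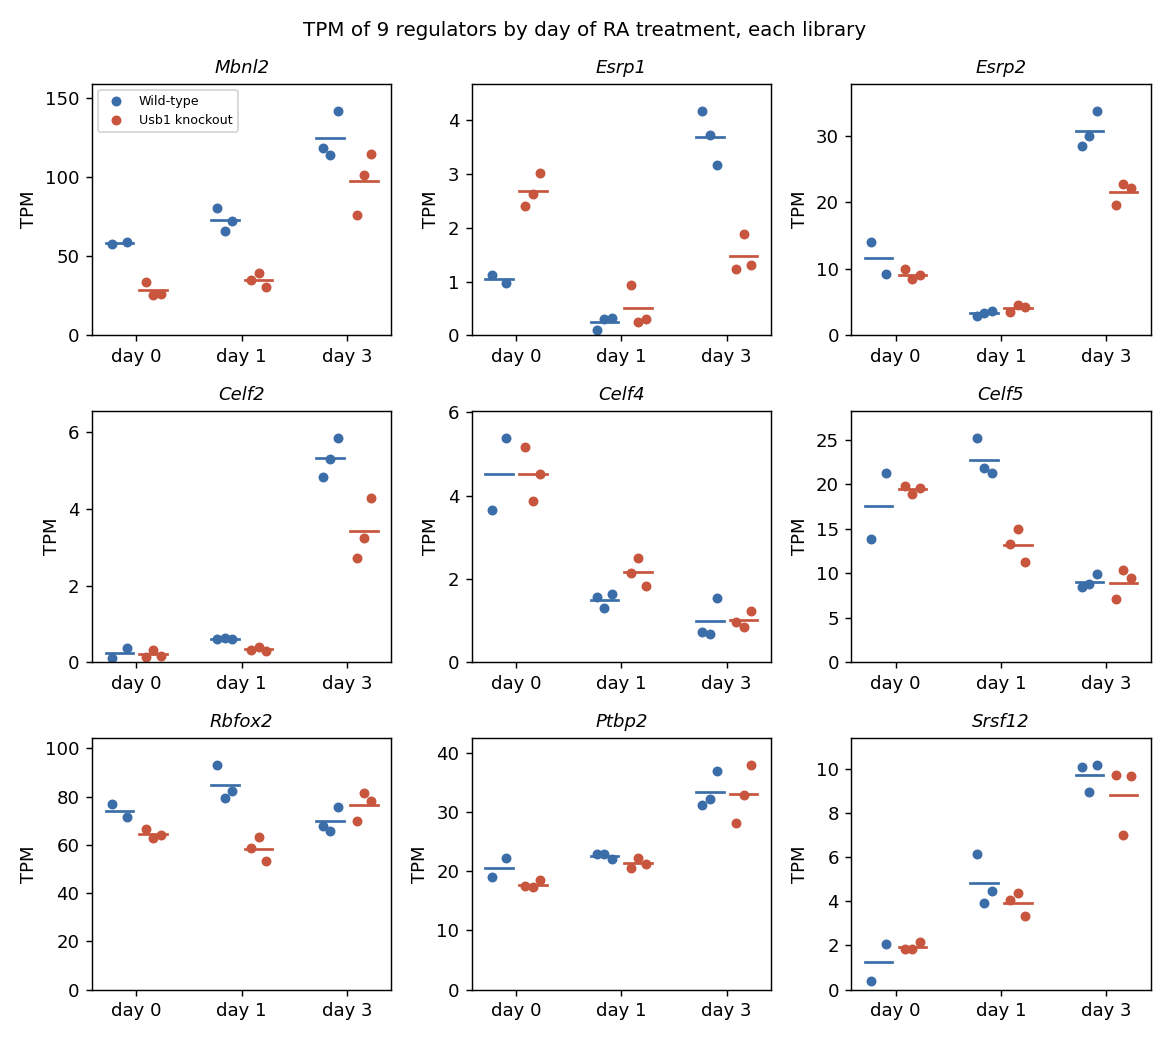
TPM of 9 regulators (1 panel each, axes from 0) in each library against the day of RA, with wild-type and *Usb1* knockout cells in separate colours and a short bar at each group mean. *Esrp2* dips at day 1 and ends at 28.5 to 33.8 TPM in wild-type and 19.6 to 22.8 TPM in knockout cells, and *Mbnl2* is lower in knockout cells at day 0 and day 1.

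After 1 day of RA, 18 of the 48 genes passed in wild-type cells (6 higher, 12 lower, against 38% of all genes tested, 25.5% higher and 12.5% lower). This share was near that of all genes and below the 48.6% of protein-coding genes. The libraries of the 2 days did not overlap for 34 genes, against 53.3% of all genes tested. Under a scaling to equal medians the split was 2 higher and 19 lower. Without wild-type replicate 1 at day 0, 15 passed, and *Hnrnpf*, *Hnrnpl*, *Hnrnpul2*, *Srsf10* and *Esrp1* did not. Of the SR genes, 8 passed (3 higher, 5 lower, and 2 and 7 under equal medians), and among them *Srsf2* fell by 0.39 (SE 0.06) and *Srsf6* by 0.38 (SE 0.05), while *Srsf12* rose by 1.48 (SE 0.27), *Srsf9* by 0.63 (SE 0.10) and *Srsf1* by 0.32 (SE 0.06) on the log2 scale (limma, adjusted p from 1.24e-05 to 6.12e-04). The *Srsf12* rise was 0.91 without wild-type replicate 1 at day 0 (limma, adjusted p = 0.00855) and did not pass in a fit of the 5 libraries compared (adjusted p = 0.0822). *Celf4* fell by 1.13 (SE 0.22, adjusted p = 0.00103). From day 1 to day 3, 35 genes passed (11 higher, 24 lower, against 43.8% of all genes tested, 19.5% higher and 24.3% lower) and 39 did not overlap, against 54.9%. Among those that passed, the largest changes after the Esrp genes and *Celf2* were those of *Celf5* (−1.24, SE 0.16) and *Nova1* (−0.96, SE 0.23, adjusted p = 0.00344). *Nova1* measured 4.52, 5.05 and 5.99 TPM at day 1 and 2.22, 2.42 and 1.88 at day 3, without overlap, after 1.63 and 4.70 at day 0.

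Most of these genes changed in the same direction in knockout cells. Between day 3 and day 0, 33 of the 48 genes passed (13 higher, 20 lower, against 51.5% of all genes tested, 29.7% higher and 21.8% lower) and 32 did not overlap, against 56.8%. The median log2 fold change was −0.10 against 0.03 for all genes. Equal medians moved the latter to −0.25, and then 7 of the genes were higher and 31 lower. Of the SR genes 9 passed (2 higher, 7 lower) and of the hnRNP genes 12 (4 higher, 8 lower), against 1 and 10, and 1 and 16, under equal medians. The 2 responses share no library. In both, 27 genes passed, which are 87.1% of the 31 in wild-type and 81.8% of the 33 in knockout cells, and 26 of the 27 changed in the same direction. The exception was *Esrp1*. Across the 48 genes, which are not independent replicates, Pearson's r of the log2 fold changes was 0.88. Such sharing was not computed over all genes tested, so that these values do not set the 48 genes apart. Without knockout replicate 1 at day 3, 30 genes passed in knockout cells, and *Srsf1*, *Srsf9*, *Srsf10*, *Celf1* and *Esrp1* did not. Among genes changed alike, *Srsf2* measured 729, 793 and 796 TPM at day 0 and 447, 467 and 443 at day 3 in knockout cells (log2 fold change −0.77, SE 0.05, adjusted p = 1.60e-08, limma), and *Hnrnpab* went from 1002, 1144 and 1145 to 689, 738 and 612 TPM (−0.69, SE 0.07, adjusted p = 5.08e-07), each without overlap between the days.

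*Mbnl2* rose in knockout cells too, from 33.6, 25.3 and 26.0 TPM at day 0 through 35.0, 39.6 and 30.4 at day 1 to 75.9, 101 and 114 at day 3 (log2 fold change 1.73, SE 0.15, adjusted p = 1.61e-07, limma), and the difference from the wild-type change of 1.07 did not pass (0.66, SE 0.23, adjusted p = 0.101). *Celf2* went from 0.134, 0.332 and 0.176 TPM to 2.71, 3.25 and 4.29 (1.85, SE 0.17, adjusted p = 3.57e-07), *Srsf12* from 1.86, 1.86 and 2.14 to 9.72, 7.01 and 9.66 (1.72, SE 0.24, adjusted p = 2.39e-05) and *Esrp2* from 10.03, 8.39 and 9.002 to 19.6, 22.8 and 22.1 (1.15, SE 0.14, adjusted p = 8.14e-06). In each of these the libraries of day 3 lay above those of day 0. *Celf4* (−1.45, SE 0.20) and *Celf5* (−1.05, SE 0.16) fell, *Ptbp1* changed by −0.27 (SE 0.08) and *Ptbp2* by 0.85 (SE 0.10). At day 1, 17 genes passed in knockout cells (7 higher, 10 lower, against 27.7% of all genes tested, 16% higher and 11.7% lower) and 29 did not overlap, against 44.9%, and under equal medians 3 were higher and 19 lower. With 1 library left out 10 to 12 passed, and 8 of the 17 did so in every such fit. Of the 17, 11 also passed in wild-type cells, all 11 in the same direction, with no such count over all genes tested. From day 1 to day 3, 31 passed (14 higher, 17 lower, against 44.9% of all genes tested, 25.5% higher and 19.4% lower) and 33 did not overlap, against 51.9%, with 9 higher and 25 lower under equal medians. Without knockout replicate 1 at day 3, *Hnrnpf*, *Hnrnph2*, *Celf5* and *Nova1* did not pass this comparison.

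**Figure D3:**
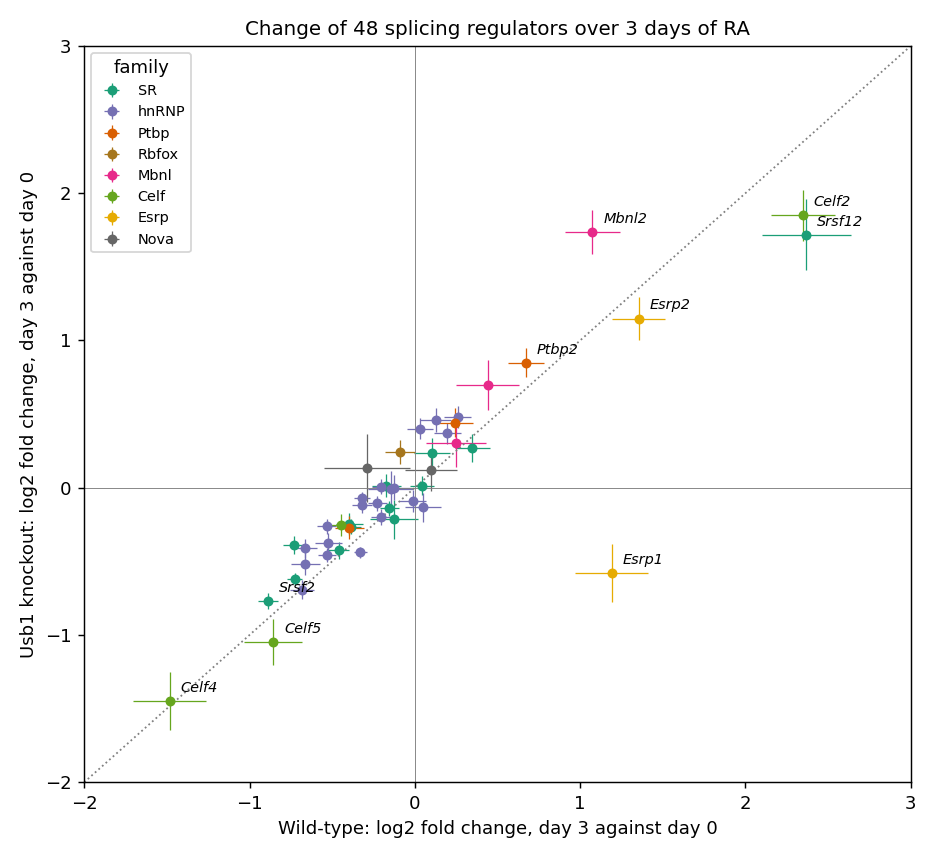
Log2 fold change from day 0 to day 3 in wild-type cells (x axis) and in *Usb1* knockout cells (y axis) for the 48 tested regulators on the log2(TPM + 1) scale, coloured by family, with bars of 1 SE. Most points lie along the diagonal (r = 0.88 across genes), and *Esrp1* lies in the lower right, at 1.19 in wild-type and −0.58 in knockout cells.

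Before RA, the share of these genes that passed between the 2 genotypes was near that of all genes. At day 0, 6 of the 48 passed (1 higher and 5 lower in knockout cells), which is 12.5% against 11.9% of all genes tested (5.08% higher and 6.8% lower), and the genotypes did not overlap for 25 genes, against 36.6%. *Mbnl2* was lowest relative to wild-type cells, at 33.6, 25.3 and 26.0 against 57.8 and 59.0 TPM, and limma gave a log2 fold change of −1.03 (SE 0.17) with an adjusted p = 0.00169. It was 77.7% of the summed Mbnl RNA in knockout and 86.6% in wild-type cells, and the log2 fold changes of *Mbnl1* (−0.31) and *Mbnl3* (0.15) did not pass. Of the 6 genes, *Mbnl2* alone passed with any single library left out, and it did not in a fit of the 5 libraries of day 0 alone (limma, adjusted p = 0.0704), in which 0 of the 48 passed and 10 had an unadjusted p under 0.05.

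*Hnrnph1* measured 372, 365 and 351 TPM in knockout and 462 and 475 in wild-type cells at day 0 (log2 fold change −0.37, SE 0.08, adjusted p = 0.0107, limma), and its relative *Hnrnph3* 64.9, 55.2 and 63.7 against 85.9 and 74.1 (−0.38, SE 0.09, adjusted p = 0.0194). *Hnrnph2*, the other paralog, did not pass, at 89.4, 94.5 and 92.0 against 76.1 and 93.0 TPM. *Srsf11* measured 125, 117 and 123 against 156 and 154 TPM (−0.35, SE 0.09, adjusted p = 0.0220) and *Hnrnpdl* 279, 284 and 280.3 against 309 and 330.2 (−0.18, SE 0.06, adjusted p = 0.0492). Each of these 4 genes was lower in all knockout libraries, though under voom 2 hnRNP genes passed as higher and 2 as lower. *Esrp1* was higher, at 2.40, 2.62 and 3.03 against 1.13 and 0.967 TPM (0.85, SE 0.22, adjusted p = 0.0249). The calls on *Hnrnph1*, *Hnrnph3*, *Srsf11*, *Hnrnpdl* and *Esrp1* were lost without wild-type replicate 1 at day 0. That fit leaves 1 wild-type library of day 0, assumed to vary like the other groups. Of 9 mesenchymal and feeder markers, 2 were lower in knockout cells at day 0 and 3 at day 1, in the direction of *Mbnl2*. Their summed TPM was 257.9 to 258.1 in wild-type and 102 to 105 in knockout cells at day 0, and 191 to 195 against 74.1 to 79.6 at day 1, most of it *Vim*, with *Acta2* at 0 in both genotypes at day 0. At day 3 the sums of the genotypes overlapped, at 706 to 774 TPM in knockout and 684 to 723 in wild-type cells. The part of mesenchymal or feeder cells in these differences was not tested.

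At day 1, 10 genes passed (1 higher, 9 lower, against 17.3% of all genes tested, 3.74% higher and 13.6% lower), and 26 genes did not overlap, against 39.8%. With 1 library left out 3 to 7 passed, fewest without wild-type replicate 3, knockout replicate 1 or knockout replicate 3 of that day (3 each), and 3 of the 10 did so in every such fit. The balance of higher and lower genes depended on the scaling. The median of all genes was −0.13 and became 0.08 with equal medians, when 11 passed, 8 higher and 3 lower, with voom 10 (6 higher, 4 lower), and with quantile normalization 8 (2 higher, 6 lower). Of the 20 hnRNP genes, 1 passed as higher and 3 as lower, but 4 as higher and none as lower with equal medians or voom. No SR gene passed, though with equal medians or voom 2 did, both higher, and 15 of the 48 regulators had an unadjusted p under 0.05. The tissue regulators *Mbnl2*, *Celf5* and *Rbfox2* passed as lower under each of the scalings and with any single library left out. *Mbnl2* measured 35.0, 39.6 and 30.4 TPM in knockout and 80.6, 65.7 and 72.4 in wild-type cells (log2 fold change −1.04, SE 0.15, adjusted p = 3.39e-04, limma). *Celf5* measured 13.3, 15.0 and 11.3 against 25.2, 21.8 and 21.3 TPM (−0.75, SE 0.16, adjusted p = 0.00493), and *Rbfox2* 58.6, 63.1 and 53.2 against 93.2, 79.4 and 82.3 (−0.54, SE 0.08, adjusted p = 5.70e-04). In all 3 genes the genotypes did not overlap. *Nova2* (2.05, 1.91 and 1.86 against 3.49, 2.99 and 2.95 TPM, −0.49, SE 0.14, adjusted p = 0.0292), *Ptbp3* (−0.32, SE 0.10, adjusted p = 0.0371) and *Hnrnpul1* (−0.27, SE 0.09, adjusted p = 0.0455) passed as lower too, but not with equal medians or quantile normalization. *Celf1*, *Hnrnph1* and *Hnrnpul2* were the others, and *Hnrnpa1* was the higher one, at 838, 858 and 823 against 735, 763 and 766 TPM (0.15, SE 0.04, adjusted p = 0.0268), though at −0.01 with quantile normalization.

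At day 3, 5 genes passed (4 higher, 1 lower, against 7.52% of all genes tested, 3.96% higher and 3.56% lower), and 11 genes did not overlap, against 22%. The higher genes were all hnRNP genes. Of the 20 hnRNP genes, 2 passed as higher with equal medians, 3 with quantile normalization and 3 with voom, and none as lower. *Hnrnpll*, a paralog of *Hnrnpl* known for exon choice in lymphocytes, measured 49.95, 46.4 and 56.9 TPM in knockout and 37.6, 41.4 and 43.9 in wild-type cells (log2 fold change 0.31, SE 0.07, adjusted p = 0.0162, limma), while *Hnrnpl* itself measured 313, 329 and 325 against 327, 323 and 329. *Hnrnph2* measured 57.9, 65.8 and 68.8 against 49.0, 52.8 and 56.8 TPM (0.27, SE 0.08, adjusted p = 0.0462), *Hnrnpd* 152, 139 and 151 against 129, 129.7 and 124 (0.20, SE 0.05, adjusted p = 0.0227) and *Hnrnpa1* 776, 754 and 837 against 685, 694 and 687 (0.19, SE 0.04, adjusted p = 0.0133). All knockout libraries lay above all wild-type libraries for these 4. Without knockout replicate 1 at day 3 the log2 fold changes of *Hnrnpll*, *Hnrnph2*, *Hnrnpd* and *Hnrnpa1* were 0.32, 0.35, 0.18 and 0.21, and *Hnrnpd* did not pass (limma, adjusted p = 0.0731). *Esrp1* was lower, at 1.23, 1.88 and 1.32 against 4.18, 3.72 and 3.16 TPM (−0.93, SE 0.20, adjusted p = 0.01004), and −0.86 without knockout replicate 1 (adjusted p = 0.0384). *Esrp2* did not pass (19.6, 22.8 and 22.1 against 28.5, 29.9 and 33.8 TPM, −0.50, SE 0.14, adjusted p = 0.0517), nor did *Celf2* (−0.53, SE 0.17, adjusted p = 0.0838) or *Mbnl2* (−0.37, SE 0.15, adjusted p = 0.186), although the genotypes did not overlap for *Esrp2* and *Celf2*. In a fit of the 6 libraries of day 3 alone 0 of the 48 passed in limma (8 at an unadjusted p under 0.05), and without wild-type replicate 1 at day 3 also 0 (11 at an unadjusted p under 0.05). All 6 extraembryonic endoderm markers were lower in knockout cells at day 3, and 2 of 7 epithelial markers were. The summed TPM of the endoderm markers was 507 to 613 in knockout and 1371 to 1680.5 in wild-type cells at day 3. On that day this was the direction of the Esrp genes. The sum of the epithelial markers was 5529 to 6397 and 6250.3 to 6375. Before day 3 the endoderm sum was lower in knockout cells too, at 103 to 126 against 145 to 169 TPM at day 0. At day 1 it was 40.8 to 53.1 against 142 to 165 TPM. The epithelial sum was higher in knockout cells on both days. It was 629 to 692 against 538 to 562 TPM at day 0, and 701 to 781 against 579 to 642 TPM at day 1. *Esrp1* was also higher in knockout cells at day 0, where the *Esrp2* libraries of the genotypes overlapped. Summed Esrp RNA was higher in knockout cells at day 1, at 4.46 to 4.83 against 2.94 to 4.02 TPM. The part of endoderm or epithelial cells was not tested.

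**Figure D4:**
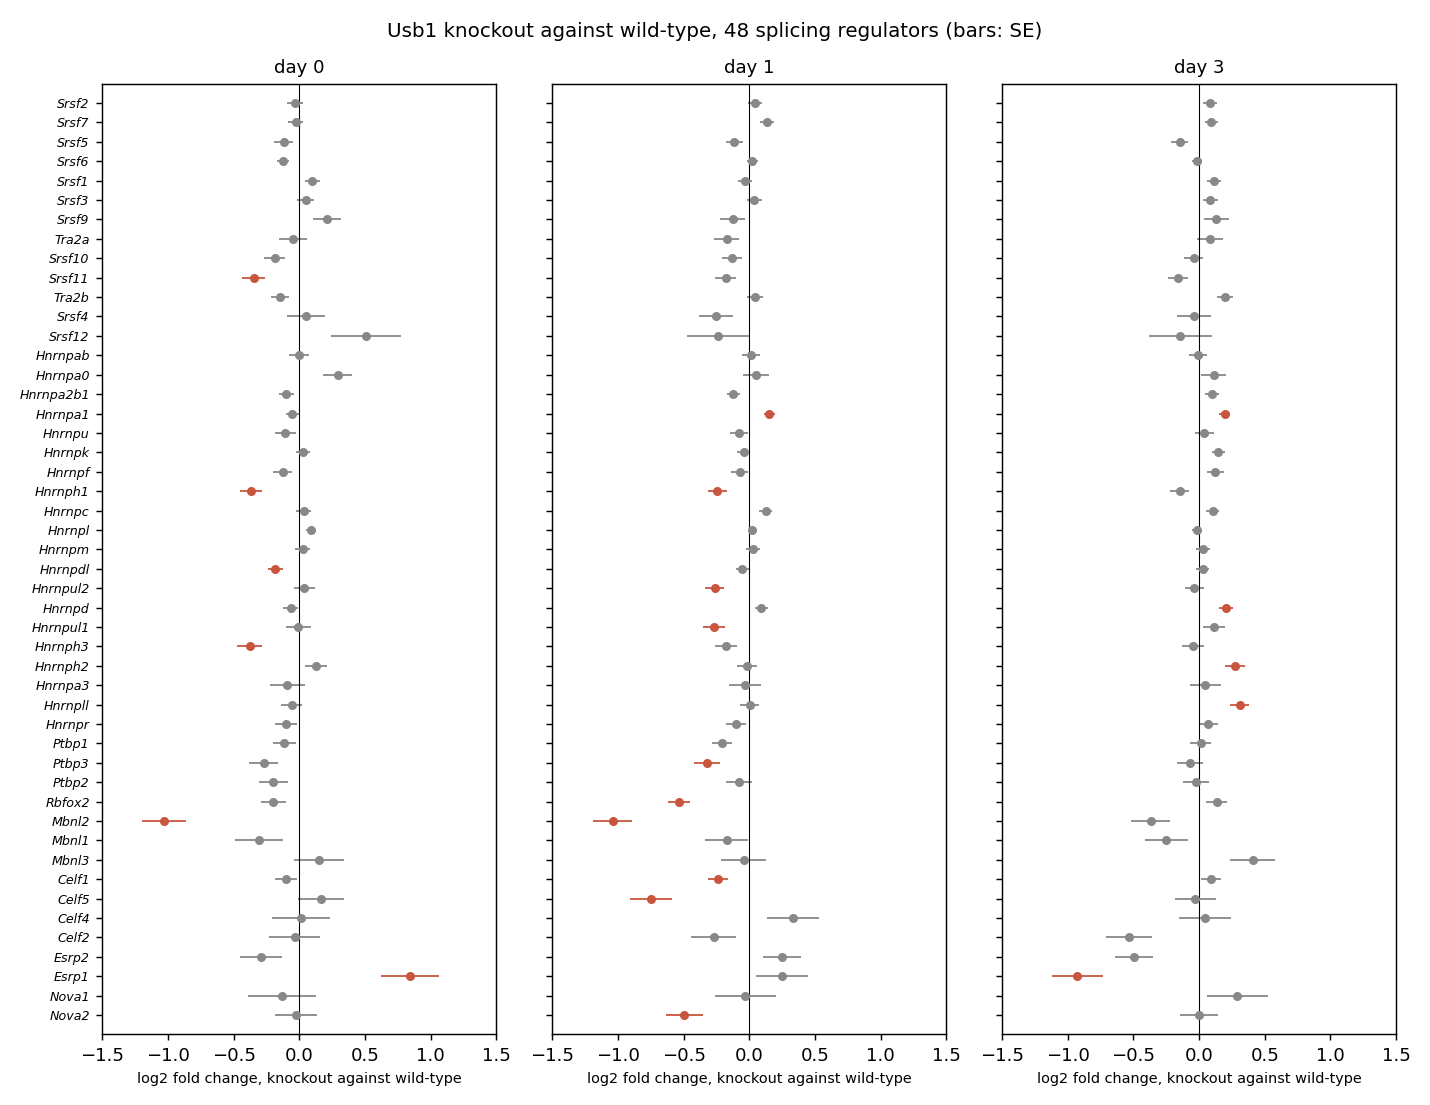
Log2 fold change of *Usb1* knockout against wild-type cells (points, with bars of 1 SE) for each of the 48 tested regulators at day 0, day 1 and day 3, on the log2(TPM + 1) scale, with genes that passed in red. *Mbnl2* stands near −1 at day 0 and day 1, and *Esrp1* is at 0.85 at day 0 and −0.93 at day 3.

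The response to RA itself was compared between the genotypes by an interaction term. Between day 0 and day 3, 4 genes passed (3 with a more positive change in knockout cells, 1 with a more negative one, against 6.15% of all genes tested, 3.53% more positive and 2.62% more negative). *Esrp1* rose in wild-type cells (1.19) and fell in knockout cells (−0.58, SE 0.20, adjusted p = 0.0232), a difference of −1.77 (SE 0.30, adjusted p = 0.00339, limma). This difference passed with any single library left out. The fall in knockout cells did not, at −0.51 without knockout replicate 1 at day 3 (limma, adjusted p = 0.0739). Beside it, 3 of 7 epithelial and 2 of 6 extraembryonic endoderm markers passed this term, all more negative in knockout cells, and their part was not tested. *Esrp1* went from 8.47% to 10.8% of the summed Esrp RNA in wild-type cells and from 22.8% to 6.38% in knockout cells. *Tra2b* fell less in knockout cells, from 110.1, 115 and 109 to 81.7, 81.2 and 91.6 TPM (difference 0.34, SE 0.09, adjusted p = 0.0370), as did *Hnrnpd* (0.27, SE 0.08, adjusted p = 0.0493) and *Hnrnpa1* (0.25, SE 0.07, adjusted p = 0.0383). For *Hnrnpa1* this was 862 and 858 to 685, 694 and 687 TPM in wild-type and 809.8, 854 and 819.9 to 776, 754 and 837 in knockout cells, whose days overlap. These 3 did not pass without wild-type replicate 1 at day 0, nor with that library and knockout replicate 1 at day 3 left out (adjusted p = 0.108, 0.178 and 0.0896), when 2 genes passed in all.

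Between day 1 and day 3, 3 genes passed (1 more positive, 2 more negative, against 7.61% of all genes tested, 5.93% more positive and 1.68% more negative). *Rbfox2* fell in wild-type cells, from 93.2, 79.4 and 82.3 to 67.8, 65.7 and 75.7 TPM, and rose in knockout cells, from 58.6, 63.1 and 53.2 to 69.9, 81.7 and 78.1, without overlap in either (difference 0.67, SE 0.12, adjusted p = 0.00312, limma). Of the 3 genes, *Rbfox2* alone passed with any single library left out. *Esrp1* (−1.18, SE 0.28, adjusted p = 0.0204) and *Esrp2* (−0.74, SE 0.20, adjusted p = 0.0399) rose less in knockout cells, *Esrp2* to 21.5 ± 1.68 TPM (SD, n = 3) from 4.11 ± 0.541 (n = 3), against 30.8 ± 2.71 (n = 3) from 3.31 ± 0.439 (n = 3) in wild-type cells. Without knockout replicate 1 at day 3 the *Esrp2* difference was −0.68 and did not pass (limma, adjusted p = 0.0627). With wild-type replicate 1 at day 0 and knockout replicate 1 at day 3 both left out, 11 genes passed, 9 more positive and 2 more negative. Between day 0 and day 1 no gene passed in limma with all libraries (2.23% of all genes tested did, 0.704% more positive and 1.53% more negative), 8 of the 48 had an unadjusted p under 0.05, and voom passed 1.

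Genes that act with these regulators were taken as 4 lists, to be read against the shares that passed between day 0 and day 3. Over all genes these were 52.1% in wild-type and 51.5% in knockout cells, and over protein-coding genes 66% and 66.5%. Of 9 tested SR protein kinases and import factors, 5 passed between day 0 and day 3 in wild-type (3 higher, 2 lower) and 5 in knockout cells (3 higher, 2 lower). *Clk3*, a kinase of SR proteins, changed by 0.97 (SE 0.17) in wild-type and 0.55 (SE 0.15) in knockout cells, and *Tnpo3*, the importin of SR proteins, by −0.78 (SE 0.07) and −0.51 (SE 0.07) (limma, adjusted p from 4.51e-07 to 0.00615). *Clk1*, another of these kinases, was lower in knockout cells at day 0, at 95.6 ± 2.35 TPM (SD, n = 3) against 128 ± 0.302 (n = 2) (−0.42, SE 0.07, adjusted p = 0.00165), and 3 of the 9 were lower at day 1, against 13.6% of all genes tested. With quantile normalization or voom none of the 9 passed at day 1 (limma, 3 and 2 at an unadjusted p under 0.05), and with equal medians 1 did, as higher. At day 3 none passed (limma, 0 at an unadjusted p under 0.05), against 7.52% of all genes. Of 21 hnRNP-like nuclear RNA-binding proteins, 14 passed in wild-type (4 higher, 10 lower) and 13 in knockout cells (4 higher, 9 lower) between day 0 and day 3, among them *Rbmx*, an X-linked hnRNP, which rose from 24.2 ± 2.86 (n = 2) to 49.1 ± 0.921 TPM (n = 3) in wild-type cells (1.00, SE 0.10, adjusted p = 1.09e-06).

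Of 21 other tissue or signal-dependent splicing regulators, 14 passed in wild-type (4 higher, 10 lower) and 15 in knockout cells (7 higher, 8 lower) between day 0 and day 3. The neuronal *Elavl3* and *Elavl2* changed most in both, by −2.32 and −1.73 on the log2 scale in wild-type cells (SE 0.18 and 0.12, adjusted p = 5.53e-08 and 2.23e-08, limma). *Rbm24*, a muscle splicing factor, was at 1.72 ± 0.290 TPM in knockout and 0.228 ± 0.0866 in wild-type cells at day 3 (n = 3 each, 1.15, SE 0.20, adjusted p = 0.00228), and *Rbm47*, an epithelial RNA-binding protein, at 6.63 ± 0.340 and 10.7 ± 0.346 (−0.62, SE 0.13, adjusted p = 0.00764). At day 1, 8 of the 21 passed, all lower in knockout cells, against 17.3% of all genes tested and 13.6% as lower. With equal medians 1, with quantile normalization 2 and with voom 4 of the 21 passed, again all lower. Of the 10 factors of nonsense-mediated decay (NMD), 6 passed in wild-type (1 higher, 5 lower) and 4 in knockout cells (all lower) between day 0 and day 3, and 5 were lower in knockout than in wild-type cells at day 1, against 13.6% of all genes tested. With quantile normalization or voom 4 were lower, and with equal medians 3 were lower and 1 higher. *Upf2* was lower in knockout cells at day 0 (−0.53, SE 0.10, adjusted p = 0.00423) and day 1 (−0.69, SE 0.09, adjusted p = 1.29e-04).

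Many of these regulators are known to limit their own level by splicing in exons that trigger NMD. In the GENCODE M21 annotation, 27 of the 52 genes (51.92%) hold a transcript marked as an NMD target, against 26.21% of the 14485 protein-coding genes tested, including 11 of the 13 SR genes (84.62%), all 3 Ptbp genes and 10 of the 20 hnRNP genes, but no Mbnl, Esrp, Nova or Rbfox gene. A transcript with a retained intron is annotated in 38 of the 52 (73.08%), against 53.97%. The deposited values are gene totals, so that productive and NMD transcripts are counted together here. For 7 of the genes over 10% of the exon bases also belong to another gene, namely *Srsf4* (43.0%), *Nova2* (31.7%), *Hnrnpab* (29.1%), *Hnrnpf* (26.5%), *Srsf2* (25.3%), *Ptbp1* (20.7%) and *Hnrnpm* (14.7%). *Hnrnpm* shares its bases with *March2* on the same strand, where no strand setting separates the reads. The others overlap genes on the opposite strand, and without a stated strand setting, their reads and those of their neighbours cannot be told apart.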

How the data were processed

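Total RNA of 17 cultures was sequenced from NEBNext Ultra libraries. The deposited values are TPM per gene, made by the authors. Per the submitters' processing notes, the tools include HISAT2 2.1.0 and StringTie 1.3.6, with GRCm38.p6. How reads were counted and the strand setting are not given in the sources used here. The members and gene lists were chosen with earlier results of these data known.

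Genes at 1 TPM or more in 2 or more libraries were fitted on log2(TPM + 1) in limma 3.58.1 (R 4.3.3), with 6 group means, a mean-variance trend and Benjamini-Hochberg adjustment over all tested genes. Contrasts were knockout against wild-type at each day, days within a genotype, and their interaction (12 in all). The labels call samples repeats and the study biological replicates, and p-values measure the spread between these samples. The fit was checked on simulated data. Reads were recovered from TPM and exon length (GENCODE M21), and 95.9% to 96.7% of values came out whole within 0.01. No replicate pair agreed within sampling noise (chi-square per gene 2.96 to 17.6). Precision at low levels is set by these reads.

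Statistics were given, per contrast, for up to 6 members with the largest change among those that passed and did not overlap, for the highest member of each family and for paralogs of a named member. For each of the 4 lists of related factors, up to 3 genes that passed were named. Alternatives were another pseudocount, filter, scaling, gene universe, variance model and set of libraries, voom on recovered reads, a replicate block and each library left out. The symbol rule also matched 2 pseudogenes, left out as not protein-coding. Python 3.11.15 with pandas 2.3.3 and matplotlib 3.10.9 was used for tables and plots.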

Additional observations from a re-analysis of the deposited data

Results flagged for a closer look

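For 7 interaction terms the response to RA differed between wild-type and *Usb1* knockout cells in limma. Between day 0 and day 3 the differences in log2 fold change, knockout minus wild-type, were −1.77 for *Esrp1*, 0.34 for *Tra2b*, 0.25 for *Hnrnpa1* and 0.27 for *Hnrnpd*. Between day 1 and day 3 they were −1.18 for *Esrp1*, −0.74 for *Esrp2* and 0.67 for *Rbfox2*. Those of *Esrp1* from day 0 and of *Rbfox2* passed with any single library left out.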

How the results depend on the processing

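The genes chosen by the naming rule kept their sign under the settings run, in the comparison for which each was chosen. Over all 48 genes, chosen after seeing the data, scaling turned the sign of 5 calls, namely *Hnrnpa1* between genotypes at day 1 and *Srsf1* from day 0 to day 3 in knockout cells (quantile normalization), and *Hnrnpl* at wild-type day 1 and *Srsf9* and *Rbfox2* from day 0 to day 3 in knockout cells (equal medians). Of the genes that did not pass, 3 to 26 per comparison turned. The same scalings were applied to the gene lists after seeing the data. Counts of genes that passed, out of those tested, are given for knockout against wild-type cells at day 0, 1 and 3 (6, 10 and 5 of 48), for the response in each genotype, and for the interaction. A pseudocount of 0.1 gave 3 at day 3. Without a filter 5 passed at day 1 and 2 in the interaction from day 0 to day 3, and with at least 5 TPM 1 passed in that from day 0 to day 1, as it did with quantile normalization, equal medians, voom and protein-coding genes alone. Quantile normalization, equal medians and voom gave 2 in the interaction from day 0 to day 3, and equal medians 3 at day 3. Protein-coding genes alone gave 8 at day 3 and 7 in the interaction from day 1 to day 3. Libraries of the comparison alone gave 0 at day 0, 0 at day 3 (limma, with 10 and 8 at an unadjusted p under 0.05) and 1 in the interaction from day 0 to day 3. A 2-fold minimum left 1, 1 and 0 between genotypes, 3, 6 and 4 in wild-type cells (day 1 and day 3 against day 0, day 3 against day 1), 1, 6 and 3 in knockout cells, and 1 in each interaction that had any.

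Splits of higher and lower genes moved with the scaling. Equal medians gave 1 and 3 at day 0 and 2 and 1 at day 3 between genotypes, and 6 and 29 from day 0 to day 3 in wild-type cells. Voom gave 3 and 4 at day 0, 3 and 4 at day 3, 5 and 18 for wild-type day 1, 7 and 16 for knockout day 1, 11 and 25 for knockout day 3 against day 0 and 14 and 22 against day 1. Quantile normalization gave 0 and 7 at day 0, 4 and 2 at day 3, and 9 and 10 for knockout day 1.

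With each library left out, counts ranged from 1 (without wild-type day 0 replicate 1) to 8 (without replicate 2) at day 0, 3 (without wild-type day 1 replicate 3) to 7 at day 1 and 0 (without wild-type day 3 replicate 1) to 4 at day 3. They ranged from 15 to 17, 27 to 33 and 28 to 34 in wild-type cells, and from 10 to 12, 30 to 34 and 27 to 34 in knockout cells. The interactions ranged from 0 to 4 (day 0 to day 1), 1 (without wild-type day 0 replicate 1) to 7 (without replicate 2), and 1 (without wild-type day 1 replicate 1) to 10 (without knockout day 3 replicate 1). Leaving out wild-type day 0 replicate 1 and knockout day 3 replicate 1, a choice made after seeing the data, gave 3 at day 0, 2 in the interaction from day 0 to day 3 and 11 in that from day 1. Leaving out 1 library moved counts by over 1.5 times in 3 fits at day 0, 5 at day 1, 1 at day 3, 4 for knockout day 1 against day 0, and 1, 9 and 4 for the interactions. The cause of these changes was not tested.

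Replicate numbers did not pair the samples, as deviations of same-numbered libraries correlated at −0.13 to 0.12 and 6 of 17 libraries matched best with their own number. With a replicate block 6, 8 and 5 genes passed between genotypes, and 2 in the interaction from day 0 to day 3. Depth limits *Esrp1* (3 to 122 reads), *Srsf12* (6 to 158) and *Celf2* (14 to 653).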
